A study of Homo sapiens with 12 samples.

Results

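Expression of 10 chemokine genes was followed in human 231BR breast cancer cells: CXCL1, CXCL2, CXCL3, CXCL5, CXCL6, CXCL8, CXCL16, CCL2, CCL5 and CCL20. They were taken by gene symbol as chemokines that attract neutrophils, monocytes or lymphocytes, and each was read from the probe set that carries its symbol and no other, at the highest mean over the arrays where there were several. Of the 10 genes, 9 had such a probe set, out of 17958 genes compared in all. CXCL1 had none, because the probe set that holds it also carries the symbol CXCL2. The 231BR line is a brain-seeking derivative of the triple-negative line MDA-MB-231, here with EGFP, and it is a single line, so every value below concerns that line. RNA was hybridised to 12 Affymetrix Human Gene ST arrays in 4 groups of 3: cells given 10 nM estradiol together with mouse astrocytes, cells given vehicle (OH) together with mouse astrocytes, cells given 10 nM estradiol alone, and cells given vehicle alone. The co-culture lasted 24 h, after which the EGFP cells were sorted. The labels do not say whether the 3 arrays of a group came from separate cultures, so the p-values measure the spread between these arrays, which may be technical.

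Chemokines are small secreted proteins that draw leukocytes along a gradient by binding G protein-coupled receptors. CXCL1, CXCL2, CXCL3, CXCL5, CXCL6 and CXCL8 carry the ELR motif before their first cysteines, bind CXCR2 (CXCL6 and CXCL8 also CXCR1), recruit neutrophils and are encoded side by side on chromosome 4. CCL2 recruits monocytes through CCR2, CCL5 recruits T cells and monocytes, CCL20 is the ligand of CCR6, and CXCL16 is a membrane-bound ligand of CXCR6 that proteases can shed. Many of these genes are switched on by interleukin 1 and tumor necrosis factor through NF-kB, and their messenger RNAs are short-lived.

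The promoters of 4 ELR chemokines are shown because these genes stand close together in the genome and moved in opposite directions with astrocytes. Each sequence is the 250 bases before the start of the gene, from RefSeq on GRCh38.p14, read 5′ to 3′ on the gene's own strand. Capitals mark the NF-kB motif, GGAATTTCC with any flanking base that belongs to a match to the NF-kB consensus. CXCL2 lies at chr4:74099196-74099445 on the minus strand, CXCL8 at chr4:73740319-73740568 on the plus strand, CXCL3 at chr4:74038690-74038939 on the minus strand and CXCL6 at chr4:73836428-73836677 on the plus strand.
CXCL2: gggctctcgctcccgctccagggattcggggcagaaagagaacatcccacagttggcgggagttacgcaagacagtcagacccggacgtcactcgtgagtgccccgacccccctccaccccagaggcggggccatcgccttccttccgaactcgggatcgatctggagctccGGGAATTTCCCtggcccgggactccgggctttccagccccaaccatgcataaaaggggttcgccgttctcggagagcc
CXCL8: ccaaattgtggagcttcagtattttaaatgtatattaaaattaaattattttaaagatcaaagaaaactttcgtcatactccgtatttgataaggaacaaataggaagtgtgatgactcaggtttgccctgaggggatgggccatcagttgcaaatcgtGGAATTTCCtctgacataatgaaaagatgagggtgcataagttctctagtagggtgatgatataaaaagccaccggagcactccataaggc
CXCL3: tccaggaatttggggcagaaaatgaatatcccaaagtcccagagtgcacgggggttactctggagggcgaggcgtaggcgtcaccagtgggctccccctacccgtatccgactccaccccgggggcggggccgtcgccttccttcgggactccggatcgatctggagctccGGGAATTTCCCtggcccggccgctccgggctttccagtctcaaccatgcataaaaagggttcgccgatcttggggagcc
CXCL6: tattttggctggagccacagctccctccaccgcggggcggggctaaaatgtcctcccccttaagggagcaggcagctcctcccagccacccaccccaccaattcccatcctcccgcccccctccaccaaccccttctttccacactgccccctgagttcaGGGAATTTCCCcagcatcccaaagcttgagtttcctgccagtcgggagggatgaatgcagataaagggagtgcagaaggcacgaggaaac

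Of the 10 genes, 7 were matched in the promoter table, and CXCL16, CCL2 and CCL5 are named only. The 9 letters GGAATTTCC, searched on both strands, were found before CXCL1, CXCL2, CXCL3, CXCL5, CXCL6 and CXCL8, and in 145 of 35116 promoters of the same length (0.413%). This motif was picked as the known NF-kB site of the family, so its presence in these genes is a description. In CXCL2 it ran from base 77 to base 69 before the start, in CXCL3 from base 78 to base 70, in CXCL6 from base 89 to base 81 and in CXCL8 from base 91 to base 83. The looser NF-kB consensus, whose matches overlap these sites in CXCL1, CXCL2, CXCL3, CXCL5 and CXCL6, was also found before CCL20, and in 9.96% of all promoters. An AP-1 motif, TGANTCA on both strands, was found in 1 of the 7, before CXCL8 from base 137 to base 131, against 6.57% of all promoters. Aligned end to end, the CXCL2 and CXCL3 windows were identical at 73.3% of columns and those of CXCL1 and CXCL3 at 81.4%.

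The arrays differed in the spread of their values. The SD of the log2 values over all probe sets of an array was 1.62 to 2.10 with astrocytes and 2.04 to 2.22 in cells alone, and replicate 2 of both astrocyte groups was lowest, at 1.62 with estradiol and 1.82 with vehicle. Correlations between arrays over the 17958 genes compared were 0.681 to 0.985 among the 6 astrocyte arrays and 0.967 to 0.997 among the 6 arrays of cells alone. The mean of both comparisons is therefore given below also without replicate 2 of both astrocyte groups and with the array SD as a covariate. Of the 5 markers expected in MDA-MB-231 cells, 3 fell with astrocytes in the mean of both comparisons defined below. Among them were EGFR and CD44, by 1.45 and 0.93 log2 units. S100A4 rose by 0.62, a call lost after quantile normalization and with the array SD as covariate. Of the 3 markers expected to be low, ESR1 rose by 0.80, while CDH1 (0.45) and PGR (0.52) did not pass. Of 8 astrocyte markers, 4 rose and 2 fell, among them GFAP (0.95) and SLC1A3 (−0.94), where 24.5% of all genes rose and 23% fell. After quantile normalization 1 rose and 1 fell, and 2 rose when any array of estradiol alone, replicate 1 or 2 of vehicle alone, or replicate 2 or 3 of vehicle with astrocytes was left out. The signal of the astrocyte markers, summed on the linear scale, was 316 to 446 with astrocytes and 393 to 437 in cells alone. Of 8 measured microglia and macrophage markers, 3 rose and 0 fell, SPI1 by 1.28, AIF1 by 0.96 and ITGAM by 0.49, though the call of ITGAM was lost in 10 of 18 alternatives and the count ran from 2 to 6 with 1 array left out. Their summed signals were 408 to 521 with astrocytes and 425 to 468 alone. With the array SD as covariate 0 astrocyte markers and 1 microglia and macrophage marker rose, and 0 of the 5 MDA-MB-231 markers fell. The call of ESR1 was lost in 9 of 18 alternatives, among them this covariate, quantile normalization and leaving out replicate 2 of both astrocyte groups. An array signal has no true zero here, so these sums hold background as well as RNA. The astrocytes were mouse and the probe sets human, and how far these probe sets read mouse RNA was not tested. Neither the calls nor the sums therefore measure how many mouse cells were carried over. The part of other cells in the differences below was not tested, and in a bulk sample fewer cells of a type and less RNA per cell cannot be told apart.

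With astrocytes, CXCL2 and CXCL8 fell in the mean of the estradiol and vehicle comparisons, and CXCL3, CXCL5, CXCL6, CXCL16 and CCL5 rose. CCL2 and CCL20 did not pass the threshold in either direction. The mean of both comparisons sets 6 arrays with astrocytes against 6 without, each treatment weighted equally. All values are the deposited log2 values, so a difference of 1 is a 2-fold change, and differences were tested in limma over all genes at a Benjamini-Hochberg adjusted p under 0.05. Levels of different genes are not compared, since each probe set has its own response.

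CXCL2 (probe set 8100994, gene at chr4:74097040-74099195), a neutrophil attractant, was at 3.85, 4.28 and 4.13 on the arrays of estradiol with astrocytes and at 5.04, 5.05 and 4.78 on those of estradiol alone. With vehicle it was at 3.94, 4.11 and 4.03 with astrocytes and at 5.11, 4.77 and 4.87 alone. Every astrocyte array lay below every array of cells alone, and the replicates of each group lay within 0.5 log2 units of each other. The difference was −0.87 (SE 0.19, adjusted p = 0.0341) under estradiol, a 1.83-fold lower level, and −0.89 (SE 0.19, adjusted p = 0.0763) under vehicle, which missed the threshold. In the mean of both CXCL2 fell by 0.88 (SE 0.13, adjusted p = 0.0033), 1.84-fold. This difference was −1.04 with the array SD as covariate and −0.95 without replicate 2 of both astrocyte groups, and over its 18 alternatives its adjusted p was 0.00123 to 0.0152. The call under estradiol was less firm: its adjusted p reached 0.155, and it was lost without replicate 1, 2 or 3 of estradiol alone, replicate 1 or 2 of vehicle alone, or replicate 3 of estradiol with astrocytes, and in a fit of the compared groups alone.

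The probe set that carries both CXCL2 and CXCL1 (8095697) belongs to neither gene by the rule used and was not tested. Its values are given because it is the sole reading of CXCL1, a further CXCR2 ligand, at chr4:73869393-73871308. It was at 6.62, 5.91 and 6.50 with estradiol and astrocytes, against 8.21, 8.40 and 8.07 with estradiol alone. It was at 6.07, 5.80 and 6.34 with vehicle and astrocytes, against 7.78, 7.94 and 8.34 with vehicle alone. All 6 astrocyte arrays were below all 6 arrays of cells alone. Which of the genes gave this signal cannot be told apart on these arrays. CXCL1, CXCL2 and CXCL3 are close paralogs, and cross-hybridisation between their probe sets was not tested.

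CXCL8 (8095680, chr4:73740569-73743716), interleukin 8, the best known neutrophil attractant, was at 8.03, 4.92 and 7.53 with estradiol and astrocytes and at 8.97, 8.83 and 8.76 with estradiol alone. It was at 7.11, 6.21 and 7.56 with vehicle and astrocytes and at 8.45, 8.73 and 8.75 with vehicle alone. All astrocyte arrays were below all arrays of cells alone, and replicate 2 was the lowest array in both astrocyte groups. The difference was −2.03 (SE 0.63, adjusted p = 0.0527) under estradiol and −1.68 (SE 0.63, adjusted p = 0.132) under vehicle, 4.08-fold and 3.21-fold lower, and neither passed. In the mean of both CXCL8 fell by 1.86 (SE 0.45, adjusted p = 0.0105), 3.62-fold, the widest difference among the 9 genes and at percentile 1.20 of all genes. It was −1.19 (adjusted p = 0.00255) without replicate 2 of both astrocyte groups and −0.54 (adjusted p = 0.268) with the array SD as covariate, and over 19 alternatives the adjusted p was 0.0019 to 0.268.

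CXCL3 (8100984, chr4:74036589-74038689), a CXCR2 ligand, went the other way. It was at 4.82, 7.09 and 5.90 with estradiol and astrocytes, against 4.83, 4.59 and 4.89 with estradiol alone, and replicate 1 of the astrocyte group lay within the range of cells alone. It was at 5.47, 5.56 and 5.57 with vehicle and astrocytes, against 4.40, 4.59 and 4.69 with vehicle alone, with no overlap. The differences were 1.17 (SE 0.42, adjusted p = 0.0689) and 0.97 (SE 0.42, adjusted p = 0.161), neither past the threshold, and in the mean of both CXCL3 rose by 1.07 (SE 0.30, adjusted p = 0.0164), 2.10-fold. Without replicate 2 of both astrocyte groups the difference was 0.78. With the array SD as covariate it came to 0.25 (adjusted p = 0.499), the highest adjusted p of 19 alternatives, of which the lowest was 0.000953.

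CXCL5 (8100977, chr4:73995642-73998677) and CXCL6 (8095688, chr4:73836678-73838760) are ELR chemokines of the same cluster on chromosome 4. CXCL5 was at 4.28, 5.87 and 4.79 with estradiol and astrocytes, against 4.03, 4.12 and 4.07 with estradiol alone. It was at 4.46, 5.02 and 4.92 with vehicle and astrocytes, against 4.06, 3.92 and 4.15 with vehicle alone. All astrocyte arrays were above all arrays of cells alone. The differences were 0.91 (adjusted p = 0.0716) under estradiol and 0.75 (adjusted p = 0.167) under vehicle. In the mean of both CXCL5 rose by 0.83 (SE 0.24, adjusted p = 0.0176), 1.78-fold. Without replicate 2 of both astrocyte groups it was 0.55, and when the array SD was a covariate 0.14 (adjusted p = 0.563), the upper end of a range that began at 0.00255 over 18 alternatives.
CXCL6 was at 3.81, 4.08 and 3.75 with estradiol and astrocytes, against 3.10, 3.25 and 3.28 with estradiol alone. It was at 3.67, 4.06 and 4.24 with vehicle and astrocytes, against 3.08, 3.33 and 3.58 with vehicle alone. The 6 astrocyte arrays again lay above the 6 others, with no array far from its group. The differences were 0.67 (adjusted p = 0.0544) under estradiol and 0.66 (adjusted p = 0.104) under vehicle, and the mean of both rose by 0.66 (SE 0.15, adjusted p = 0.00827), 1.58-fold. CXCL6 kept 0.43 with the array SD as covariate (adjusted p = 0.0819), the sole one of its 18 alternatives in which the call was lost, and its lowest adjusted p was 0.00342. Without replicate 2 of both astrocyte groups the difference was 0.60, and with quantile normalization it was 0.34.

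CXCL16 (8011713, chr17:4733533-4739928), the CXCR6 ligand, was at 2.65, 4.35 and 3.32 with estradiol and astrocytes, against 2.39, 2.47 and 2.37 with estradiol alone. It was at 2.95, 3.50 and 3.07 with vehicle and astrocytes, against 2.50, 2.29 and 2.72 with vehicle alone. Within each treatment the groups did not overlap, but the lowest astrocyte array under estradiol was below the highest array of vehicle alone. The differences were 1.03 (adjusted p = 0.0619) and 0.67 (adjusted p = 0.219), and the mean of both rose by 0.85 (SE 0.25, adjusted p = 0.0194), 1.80-fold. CCL5 (8014316, chr17:35871491-35880360), also called RANTES, was at 2.94, 4.19 and 3.00 with estradiol and astrocytes, against 2.45, 2.66 and 2.55 with estradiol alone. It was at 2.72, 3.79 and 3.56 with vehicle and astrocytes, against 2.28, 2.40 and 2.75 with vehicle alone. The groups overlapped under vehicle and not under estradiol. The differences were 0.82 (adjusted p = 0.099) and 0.88 (adjusted p = 0.145), and the mean of both rose by 0.85 (SE 0.25, adjusted p = 0.0200), 1.80-fold. Without replicate 2 of both astrocyte groups CXCL16 and CCL5 had 0.54 each and passed. With the array SD as covariate CXCL16 had 0.10 (adjusted p = 0.678) and CCL5 0.12 (adjusted p = 0.664), the highest of 18 alternatives each, whose lowest adjusted p were 0.00216 and 0.00714. The call of CXCL16 was also lost without vehicle alone replicate 2 and that of CCL5 without vehicle alone replicate 1, and both were lost without vehicle with astrocytes replicate 2.

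CCL2 (8006433, chr17:34255285-34257203), the monocyte attractant MCP-1, was at 6.18, 6.44 and 6.07 with estradiol and astrocytes, against 6.29, 6.13 and 6.10 with estradiol alone. It was at 6.11, 5.80 and 6.36 with vehicle and astrocytes, against 6.25, 5.91 and 5.62 with vehicle alone. The groups overlapped under both treatments. The mean of both was 0.11 (95% interval −0.24 to 0.45, adjusted p = 0.562), so that a rise of up to 0.45 or a fall of up to 0.24 log2 units lies within the interval. Without replicate 2 of both astrocyte groups CCL2 had 0.13. After quantile normalization CCL2 had 0.58, above that interval, and its lowest adjusted p over 19 alternatives was 0.0515. CCL20 (8048864, chr2:227813842-227817556), the CCR6 ligand, was at 2.89, 3.75 and 3.29 with estradiol and astrocytes, against 3.29, 3.36 and 3.26 with estradiol alone. It was at 2.99, 3.25 and 3.34 with vehicle and astrocytes, against 3.30, 3.12 and 3.08 with vehicle alone. The mean of both was 0.02 (−0.33 to 0.37, adjusted p = 0.916), and its sign turned to −0.33 with quantile normalization, −0.30 with the array SD as covariate and −0.10 without replicate 2 of both astrocyte groups, none of them past the threshold.

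**Figure D1:**
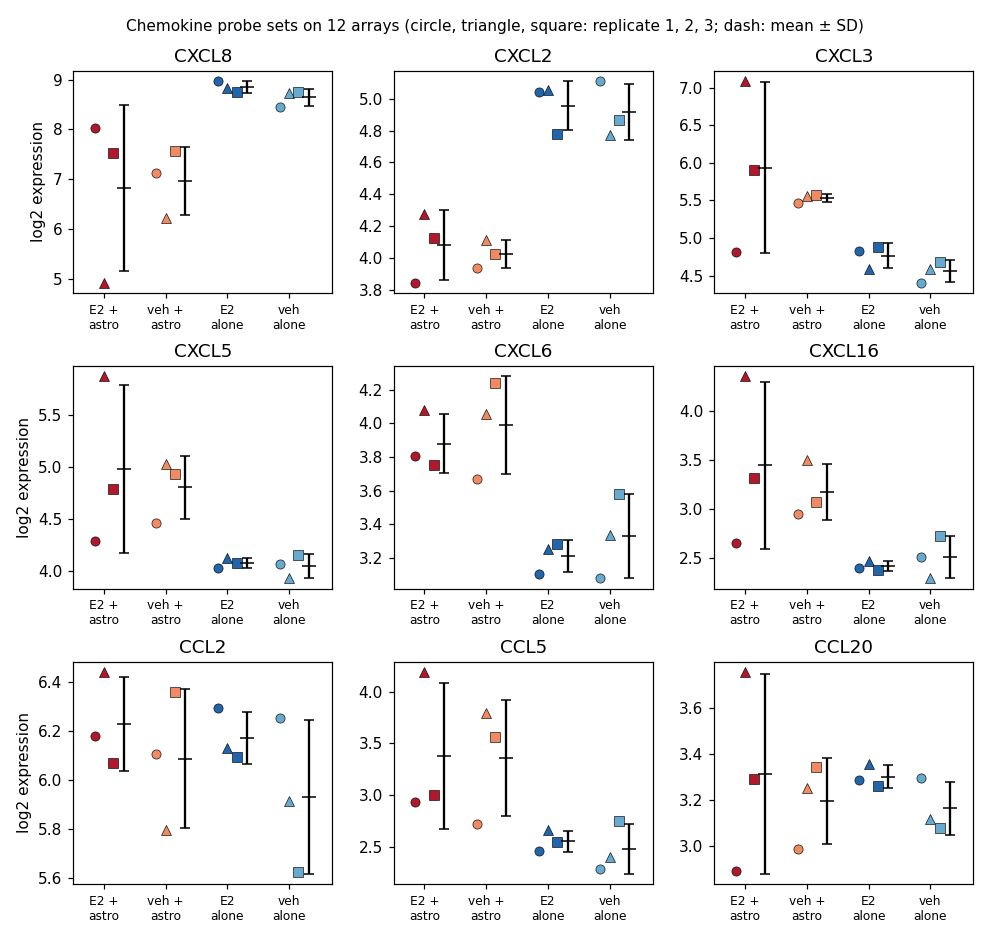
Deposited log2 expression of the 9 chemokines with a probe set of their own, 1 panel per gene, in the 4 groups of 3 arrays; points are arrays and dashes with bars are the mean and SD. The 6 astrocyte arrays of CXCL2 (3.85 to 4.28) and CXCL8 (4.92 to 8.03) sit below the 6 arrays of cells alone, and those of CXCL5 and CXCL6 sit above them.

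In counts, 1 of the 9 genes passed under estradiol (CXCL2, lower), where 13.2% of all genes passed, 8.15% lower and 5.03% higher, and 7 had an unadjusted p under 0.05, against 43.9% of all genes. None passed under vehicle in limma, where 10 of 17958 genes did (0.0557%), though 6 of the 9 had an unadjusted p under 0.05, against 28.2% of all genes. In the mean of both, 7 passed, 5 higher and 2 lower, against 47.5% of all genes, 24.5% higher and 23% lower, and the same number had an unadjusted p under 0.05, against 58.5%. The groups did not overlap for 6 of the 9 under estradiol, for 6 under vehicle and for 4 over all 12 arrays, where the shares of all genes were 50.9%, 41.8% and 23.6%. The median difference of the 9 in the mean of both was 0.66, against 0.07 for all genes. Single arrays moved these counts. Under estradiol the count was 7 when replicate 1 of estradiol with astrocytes was left out, 2 when replicate 1 of vehicle with astrocytes was, and 0 without any of the arrays named above for CXCL2. Under vehicle it was 7 when replicate 2 of estradiol with astrocytes was left out, 1 when replicate 1 of that group was, and 2 when replicate 1 of vehicle with astrocytes was. In the mean of both it was 5 without vehicle with astrocytes replicate 2.

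**Figure D2:**
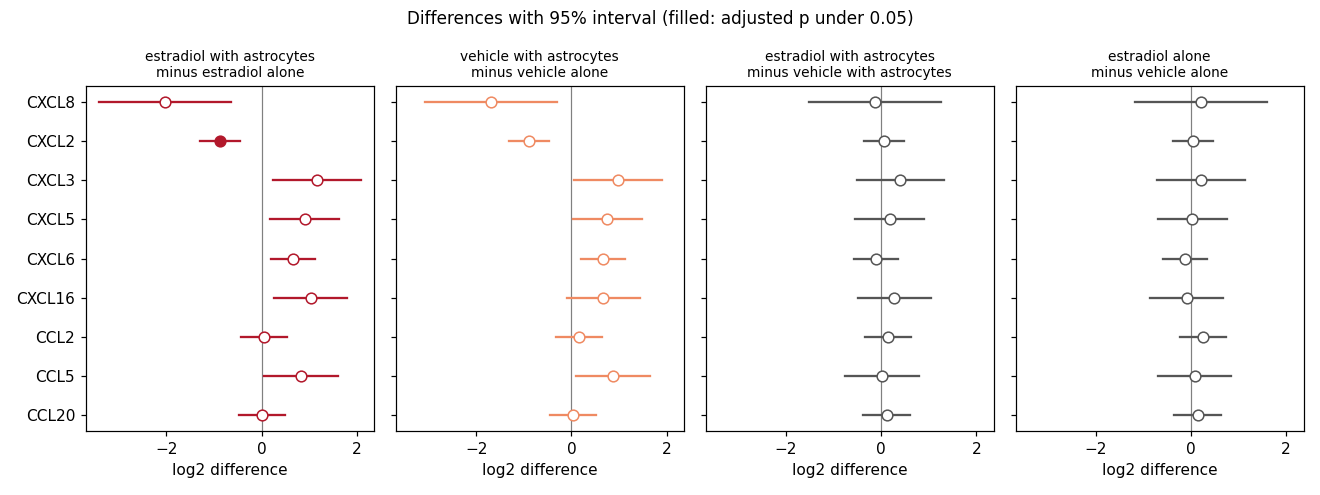
Log2 differences of the 9 chemokines with 95% intervals from limma, in the 2 comparisons with astrocytes against cells alone and the 2 of estradiol against vehicle. CXCL2 and CXCL8 lie below 0 with astrocytes under both treatments, CCL2 and CCL20 lie near 0, and all intervals of the estradiol comparisons include 0.

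Across all genes, direction went with the level of the gene on the arrays. Of the 8979 genes below the median level, 37.6% rose and 8.53% fell in the mean of both, with a median of 0.40. Of the 8979 above it, 11.3% rose and 37.5% fell, with a median of −0.48. CXCL2 lay in the lower set and fell, and CXCL3 lay in the upper set and rose, each against the more frequent call of its set. CXCL5, CXCL6, CXCL16 and CCL5 in the lower set rose and CXCL8 in the upper set fell, each with the more frequent call.

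Across the 12 arrays, which share both the culture and the normalization, the members tracked the array SD to different degrees. Pearson's r with the array SD was 0.936 for CXCL8, −0.978 for CXCL16, −0.970 for CXCL5 and −0.957 for CCL5. It was −0.916 for CXCL3, −0.827 for CXCL6, −0.561 for CCL20, 0.563 for CXCL2 and −0.126 for CCL2. Among the 6 astrocyte arrays r was 0.951 for CXCL8 and −0.926 for CXCL2, so the pair that fell with astrocytes ran in opposite directions there: the array with the smallest SD had the lowest CXCL8 and the highest CXCL2. CCL20, which was not called, had −0.922 among these 6 arrays. With the array SD as covariate, CXCL2 remained past the threshold and the other 6 called genes did not. The covariate itself differed between the culture groups, so it takes up part of any culture difference.

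**Figure D3:**
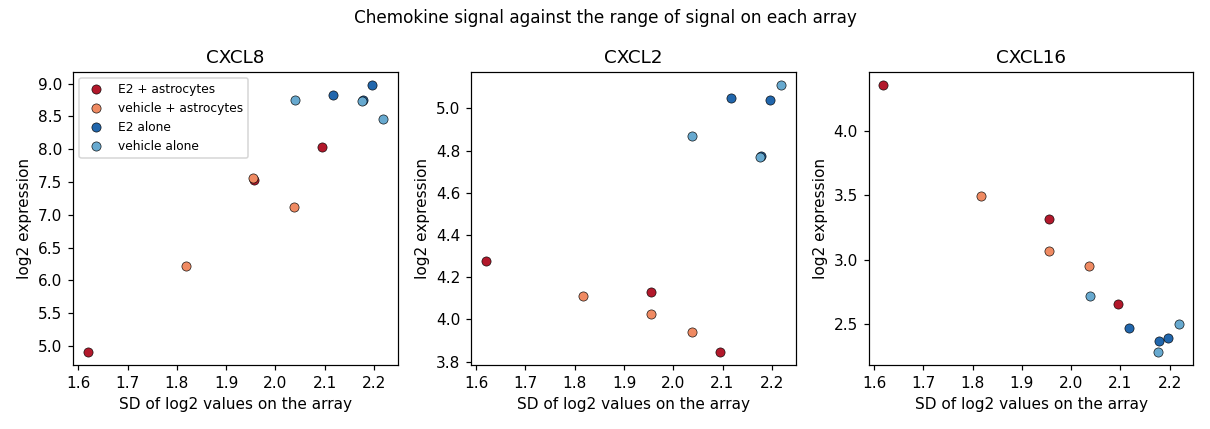
Deposited log2 expression of CXCL8, CXCL2 and CXCL16 against the SD of all log2 values of the array, for the 12 arrays, marked by group. CXCL8 is lowest and CXCL16 highest on the array with the smallest SD, 1.62, while CXCL2 is set apart by culture, with all 6 astrocyte arrays at or below 4.28.

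**Figure D4:**
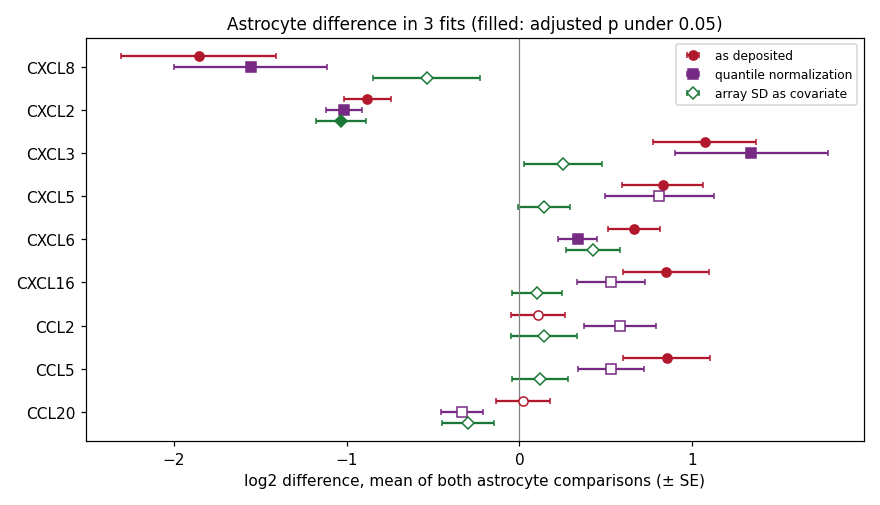
Log2 difference of each chemokine in the mean of both astrocyte comparisons, with values as deposited, after quantile normalization and with the array SD as covariate. CXCL2 keeps a difference of −0.88, −1.02 and −1.04, while CXCL8 has −1.86, −1.56 and −0.54.

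After quantile normalization 4 of the 9 passed in the mean of both: CXCL2 (−1.02) and CXCL8 (−1.56) fell, and CXCL3 (1.34) and CXCL6 (0.34) rose. The split of higher and lower calls was thus 2 and 2, against 5 and 2 as deposited. CXCL16 and CCL5 had 0.53 each and CXCL5 0.81 there, short of the threshold, and CCL2 had 0.58.

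Estradiol gave no call in any of the 9 chemokines. With astrocytes present, the question named in the series title, estradiol minus vehicle was 0.40 for CXCL3 (95% interval −0.52 to 1.32), 0.27 for CXCL16 (−0.49 to 1.04), 0.18 for CXCL5 (−0.55 to 0.91) and 0.14 for CCL2 (−0.34 to 0.63). It was 0.12 for CCL20 (−0.37 to 0.61), 0.06 for CXCL2 (−0.36 to 0.47), 0.02 for CCL5 (−0.76 to 0.79), −0.11 for CXCL6 (−0.57 to 0.35) and −0.14 for CXCL8 (−1.52 to 1.25). All 9 intervals include 0, and those of CXCL3, CXCL8 and CXCL16 leave room for a difference of over 2-fold. They come from the fit without pairing by replicate number. In limma on these 2 groups with the replicate number as a block, 0 of 9 were called. There 0 of 9 had an unadjusted p under 0.05. Limma called 0 of 9 and 0 of 17958 genes (0%), and 0 of 9 and 142 genes (0.791%) had an unadjusted p under 0.05. The groups overlapped for all 9, and did not for 2.18% of all genes. Without astrocytes the differences were −0.12 (CXCL6) to 0.24 (CCL2, −0.24 to 0.73). Again 0 of 9 were called, and 1 gene of all (0.00557%) had an unadjusted p under 0.05. The model holds 1 estimate of spread per gene for all 4 groups, so intervals for cells alone also carry the spread of the astrocyte arrays. For CXCL8 the SD was 1.67 and 0.68 with astrocytes under estradiol and vehicle, and 0.11 and 0.17 alone. In limma on the compared groups alone, 0 of 9 had an unadjusted p under 0.05. CXCL8 was the sole member whose arrays did not overlap between estradiol alone (8.76 to 8.97) and vehicle alone (8.45 to 8.75), as for 3.21% of all genes, and its difference of 0.21 did not pass. The difference between the astrocyte effects under estradiol and vehicle, the interaction, was −0.34 for CXCL8 to 0.36 for CXCL16. It passed for 0 of 9 and for 0 of all genes, with 0 and 31 (0.173%) at an unadjusted p under 0.05. The comparisons of estradiol share arrays with those of astrocytes, so they are not independent of them.

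CXCL8, CXCL3 and CXCL16 had the largest SD over the 12 arrays, at 1.24, 0.76 and 0.60 log2 units. The genes most like CXCL8, by Pearson's r over the 12 arrays, were PIGO (0.986), CUTC (0.983) and GUSBP11 (0.983), and 1674 genes had r over 0.9 with it. Those most like CXCL3 were NOL4L-DT, DNAH7 and IFNLR1 (0.983, 0.983 and 0.982), and 1502 genes passed 0.9. Those most like CXCL16 were DEFB118, HRG and SMR3B (0.994, 0.991 and 0.990), with 2963 genes past 0.9. All these pairs share the arrays' normalization and their SD, so a high r was common. Among the members, CXCL5 and CXCL16 had r = 0.982 and CXCL3 and CXCL5 0.955, while CXCL8 and CXCL3 had −0.910, CXCL8 and CXCL16 −0.958 and CXCL2 and CXCL6 −0.839.

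Other chemokines mostly rose in the mean of both. Of 13 further CXC, CX3C and XC chemokines, 12 rose and 0 fell, with a median of 0.69, where 24.5% of all genes rose. All but 1 of the 13 (CX3CL1) lay below the median level, where 37.6% of genes rose and the median was 0.40. CX3CL1 (fractalkine, the CX3CR1 ligand) was at 5.98 ± 0.74 with estradiol and astrocytes, 5.94 ± 0.43 with vehicle and astrocytes, 4.68 ± 0.18 with estradiol alone and 4.80 ± 0.19 with vehicle alone (mean ± SD, n = 3 each). It rose by 1.22 (adjusted p = 0.00538) and had 0.52 with the array SD as covariate, still past the threshold, while CXCL12, the CXCR4 ligand, rose by 0.75 and CXCL9, an interferon-induced T cell attractant, by 0.70. Of 17 measured CC chemokines out of 21, 13 rose and 0 fell (median 0.58). All but 1 of these 17 (CCL17) also lay below the median level, where the same 37.6% of genes rose. CCL21 and CCL19, the CCR7 ligands, rose by 1.23 and 0.77, and CCL18 by 0.76. With the array SD as covariate 2 of the 13 and 0 of the 17 passed, and after quantile normalization 3 and 4. Single arrays counted too: without replicate 1 of vehicle alone 5 of the 13 passed, and without replicate 1 of estradiol alone, replicate 2 of vehicle alone or replicate 2 of vehicle with astrocytes 7 did. Of the 17, 4 to 6 passed when any of those 4 arrays, replicate 2 or 3 of estradiol alone, or replicate 3 of vehicle with astrocytes was left out.

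Of 20 measured chemokine receptors out of 22, 8 rose and 0 fell (median 0.53). All 20 lay below the median level, where 37.6% of genes rose. ACKR1, a scavenging receptor of many of these chemokines, rose by 1.13, CCR6, the CCL20 receptor, by 0.87, CCR4 by 0.74, CXCR2 by 0.77 and CXCR1 by 0.60. The call of CXCR1 was lost in 11 of 18 alternatives and that of CXCR2 in 5. CXCR2, the receptor of the ELR chemokines, was at 3.40 ± 0.77 with estradiol and astrocytes and 3.46 ± 0.36 with vehicle and astrocytes. It was at 2.68 ± 0.06 with estradiol alone and 2.64 ± 0.04 with vehicle alone. Every value of CXCR2 and CCR6 lay below the median of its own array (4.35 to 4.77), and whether they exceeded background was not tested. CXCR6 (−0.28, adjusted p = 0.127) and CCR2 (0.25, adjusted p = 0.145) did not pass. With the array SD as covariate 0 of the 20 passed, and after quantile normalization 2 rose and 1 fell. The count of 8 was 3 without replicate 1 of vehicle alone, 4 without replicate 1 of estradiol alone, and 5 without replicate 2 or replicate 3 of vehicle with astrocytes.

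With values as deposited, the shares of calls among inducers of these chemokines were near those of all genes. Of 23 measured cytokines, receptors and adaptors out of 25, 5 rose and 7 fell in the mean of both, against 24.5% and 23% of all genes. With the array SD as covariate 1 rose and 4 fell, where 1539 and 1045 of the 17958 genes did. IL1B, which drives CXCL8 and CXCL2 transcription in many cells, was at 5.40 ± 1.23 with estradiol and astrocytes, 5.42 ± 0.47 with vehicle and astrocytes, 8.29 ± 0.13 with estradiol alone and 8.20 ± 0.13 with vehicle alone. IL1B fell by 2.83, IL6 by 2.17 and IL1A by 0.89, and all 3 passed with the array SD as covariate, at −1.89, −1.92 and −0.88. IL6 had −1.08 where the probe sets of a gene were averaged. Of 15 NF-kB subunits and regulators 0 rose and 7 fell (median −0.42), against 23% of all genes that fell. Of the 15, 14 lay above the median level, where 37.5% of genes fell and the median was −0.48. Among those that fell were REL by 1.23, the inhibitor TNFAIP3 by 1.11 and NFKB1 by 2.07. The balance depended on the scaling: after quantile normalization 2 rose (RELA and BCL3, named here after their values were seen) and 6 fell, with a median of −0.05. With the covariate 4 of the 15 fell, where 1045 of the 17958 genes did, with REL at −1.11, TNFAIP3 at −1.17 and NFKB1 at −0.71. REL and NFKB1 are subunits, TNFAIP3 ends NF-kB signalling, and the list's count does not say which way its activity went.

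Of 9 factors that bind or degrade chemokine messenger RNAs, 0 rose and 5 fell (median −0.66). All 9 lay above the median level, where 37.5% of genes fell and the median was −0.48. RC3H1 (roquin) fell by 1.49, RC3H2 by 1.37 and ZC3H12A (regnase 1) by 0.66, and RC3H1 and ZC3H12A passed with the array SD as covariate, at −0.70 and −0.45. After quantile normalization 3 of the 9 fell, the median was −0.12, and ZC3H12A had −0.16 (adjusted p = 0.344), against an adjusted p of 0.00224 at the lowest of its alternatives. Of 8 enzymes that shed or cleave chemokines, 3 rose and 3 fell, against 24.5% and 23% of all genes, and after quantile normalization 0 rose and 4 fell. The sheddases of CXCL16, ADAM10 and ADAM17, fell by 1.97 and 1.70, and MMP12 rose by 0.56, and 0 of the 8 passed with the covariate. Without any 1 array of estradiol alone, replicate 1 or 2 of vehicle alone, or replicate 2 of vehicle with astrocytes, 1 rose in place of 3.

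**Figure D5:**
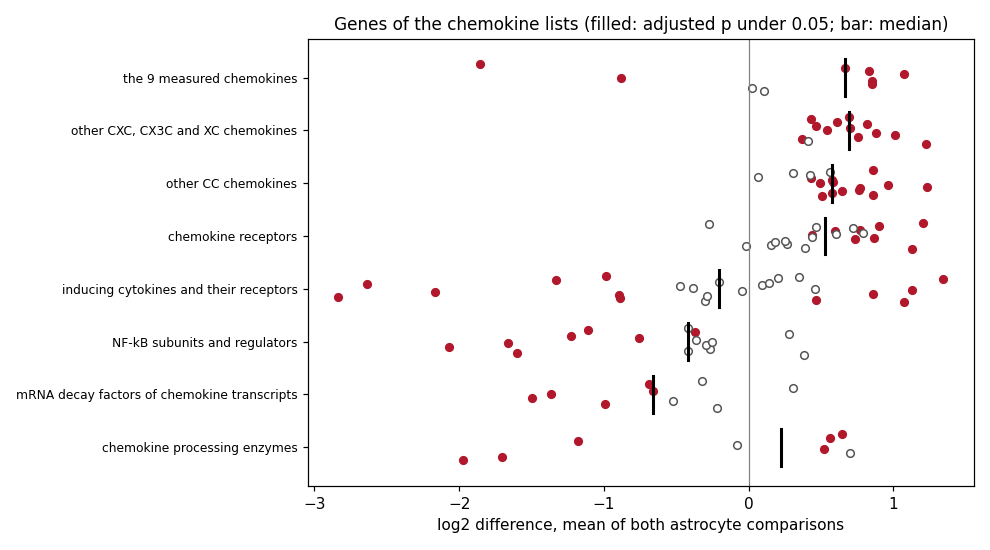
Log2 differences in the mean of both astrocyte comparisons for each gene of the member list and the pathway lists, with 1 point per gene and a line at each median. The points of the other chemokines lie above 0, from 0.37 to 1.22 in the CXC, CX3C and XC group, and those of the NF-kB group run from −2.07 to 0.38.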

How the data were processed

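Human Gene ST arrays of 12 samples in 4 groups of 3 were analysed. The authors deposited log2 expression values for 33297 probe sets. RMA and Partek are the tools given, without version, role or order, per the submitters' processing notes. The scanner files were not used here, and no detection calls entered the tests. RMA normally makes the arrays alike, yet the SD of the deposited values differed between arrays. The values were used as deposited, without a filter on low values. GEO's platform annotation names 19181 probe sets with 1 gene symbol and 2055 with several, and 12061 probe sets are not in it. Single-symbol probe sets were used, the one of highest mean over the 12 arrays for the 895 genes with several, which left 17958 genes. RefSeq's gene table for GRCh38.p14 updated symbols for the 19143 probe sets matched by gene number and gave the gene positions, and its promoter table the sequences.

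A single limma model (version 3.58.1, R 4.3.3) with a mean for each group took in the 12 arrays, and contrasts were moderated with plain eBayes, using neither its trend nor its robust option. Two-sided p-values were corrected over the 17958 genes with the Benjamini-Hochberg method and called under 0.05. The code was tested on simulated data. All 10 members were described in every comparison. From each further list up to 3 genes with the smallest p in the mean of both astrocyte comparisons were named, together with the receptors of the members, and the 3 genes most like each of the 3 most variable members, leaving out small RNA, open reading frame and LOC names. The members and lists were chosen with earlier results of these data known. Arrays of the same replicate number deviated together between the estradiol and vehicle groups with astrocytes (r = 0.789, 0.756 and 0.214 over all genes), so the number was taken to pair those groups; in every other comparison at least 1 pair was under 0.1. What a number marks is not said in the labels. Alternatives were the replicate block, quantile normalization, genes above the median level, averaging the probe sets of a gene, trended and robust eBayes, the array SD as a covariate, the compared groups alone, and leaving out arrays. Arrays have no read depth, so their number limits the precision.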

Additional observations from a re-analysis of the deposited data

How the results depend on the processing

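In the mean of both astrocyte comparisons, where 7 of the 9 chemokines passed as deposited, 4 passed after quantile normalization, 2 of the 3 tested among genes above the median level, and 1 (CXCL2) with the array SD as covariate. Leaving out 1 array gave 5 to 7. Under estradiol, where 1 passed, 7 passed with the replicate block, 2 with trend and robust options, 2 without replicate 2 of both astrocyte groups, and 0 among genes above the median level or with the compared groups alone. Under vehicle, where 0 passed, 2 passed with the replicate block, 1 after quantile normalization, 1 with the array SD as covariate, 2 without replicate 2 of both astrocyte groups and 3 with the compared groups alone. Leaving out 1 array gave 0 to 7 in either of these comparisons. Over all genes, the count was 8528 in the mean of both, against 5802 after quantile normalization, 2584 with the array SD as covariate, 4118 of the 8979 genes above the median level and 4770 to 11339 with 1 array left out. It was 2366 under estradiol, against 6691 with the replicate block, 529 after quantile normalization, 469 with the array SD as covariate, 0 with the compared groups alone and 3 to 9222 with 1 array left out. It was 10 under vehicle, against 2583, 14, 1166 and 1594 in the same settings and 2 to 6107 with 1 array left out. The astrocyte groups and the groups of cells alone share only a replicate number, so these block values stand here once. Both estradiol comparisons and the interaction kept 0 calls among the 9 in every alternative fitted for them. The compared groups alone were fitted for both estradiol comparisons and not for the interaction. The compared groups with the replicate block, an alternative chosen after seeing the data, were fitted only for estradiol against vehicle with astrocytes. For the interaction, member values ran from −0.95 to 0.76 over 20 settings, with no adjusted p below 0.741, and single members were not followed further.

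Directions turned as follows, none of them past the threshold. With astrocytes under estradiol, CCL20 was −0.38 after quantile normalization, −0.35 with the array SD as covariate and −0.21 without replicate 2 of both astrocyte groups, where CCL2 was −0.049. CCL5 was −0.0075 with the covariate. Under vehicle CCL20 was −0.29 after quantile normalization and −0.24 with the covariate, and in the mean of both −0.33, −0.30 and, without replicate 2 of both astrocyte groups, −0.10. CCR2 was −0.089 after quantile normalization and PGR −0.11 with the covariate. For estradiol against vehicle with astrocytes, leaving out replicate 2 of both groups gave −0.16 for CXCL3, −0.16 for CXCL5, 0.44 for CXCL8, −0.021 for CXCL16, −0.11 for CCL2, −0.17 for CCL5 and −0.075 for CCL20, and the covariate gave 0.12 for CXCL8 and −0.12 for CCL5. With single arrays left out, the ranges that cross 0 were −0.049 to 0.14 for CCL2 and −0.21 to 0.22 for CCL20 with astrocytes under estradiol, and −0.044 to 0.13 under vehicle and −0.090 to 0.13 in the mean of both for CCL20. For estradiol against vehicle with astrocytes they were −0.038 to 0.18 for CXCL2, −0.17 to 0.96 for CXCL3, −0.27 to 0.53 for CXCL5, −0.27 to 0.015 for CXCL6, −0.74 to 0.82 for CXCL8, −0.18 to 0.67 for CXCL16, −0.0034 to 0.28 for CCL2, −0.39 to 0.24 for CCL5 and −0.10 to 0.33 for CCL20. For estradiol against vehicle in cells alone they were −0.034 to 0.14 for CXCL2, −0.035 to 0.080 for CXCL5, −0.25 to 0.0052 for CXCL6, −0.20 to 0.016 for CXCL16 and −0.020 to 0.21 for CCL5. Genes above the median level and the compared groups alone hold fewer genes or arrays; elsewhere the cause was not tested. No group had the 4 samples needed to test for an outlying array.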
